A study of Homo sapiens with 12 samples.

Results

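The genes described here are 41 members of the ATF4 amino acid response, taken from a table of 16705 genes by their symbols and sorted by role into 12 transcription factors and stress regulators, 11 synthesis enzymes, 6 amino acid transporters and 12 cytosolic tRNA synthetases. The symbols were chosen with earlier results of these data known, so no p-value was computed for the list. All 41 had a row in the table, and 40 reached the mean of 0.5 FPKM (fragments per kilobase of transcript, scaled to the mapped fragments of the library) that was required for testing. FGF21, a hormone secreted by stressed liver, did not: it was listed at 0 in 10 of the 12 libraries, at 0.05 FPKM in untreated 144 h replicate 1 and at 0.15 FPKM in TPN 144 h replicate 3.

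RNA was sequenced from human liver spheroid co-cultures of C3A cells, a clone of the HepG2 hepatoma line, and LX-2 cells, an immortalized and activated hepatic stellate cell line. Spheroids were left untreated or received 1% total parenteral nutrition (TPN), a mixture of amino acids with electrolytes, glucose, lipid emulsion, trace elements and vitamins, for 24 h or for 144 h. Each of the 4 combinations of treatment and time had 3 libraries, named here by treatment, time and replicate. Exposure began after the spheroids had formed, and every library pooled many spheroids. Both cell lines were grown in minimum essential medium with added non-essential amino acids and serum, which all groups shared.

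When amino acids run short, uncharged tRNA activates the kinase GCN2, which phosphorylates the initiation factor eIF2 alpha. Other kinases do the same under endoplasmic reticulum (ER) stress, heme shortage or viral RNA. General translation then falls while translation of the ATF4 mRNA rises, and ATF4 protein, often paired with a C/EBP factor, switches on genes that make amino acids, import them and load them onto tRNA. In liver the same response also feeds into secreted hormones and into the control of cell death. ATF4 is thus regulated mainly at translation, and its mRNA level, which is what was measured here, is not a measure of its protein.

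ATF4 and C/EBP factors bind a composite element whose core reads TGATGNAA. The promoter windows of RefSeq (build GRCh38.p14, 250 bases before to 50 bases after each start site) were searched for these 8 letters on both strands, and several genes had more than 1 window because they have more than 1 start site. Of the 41 members, 35 had a window, and NUPR1, PSPH, SHMT2, PYCR1, LARS1 and YARS1 had none. A match was present in 13 of the 35 members (37.1%), against 4.46% of 27305 genes in the promoter table and 2.74% of the 9494 tested genes that had a window. Members had 1.54 windows per gene and tested genes 1.46. By role, 7 of 10 synthetases, 3 of 6 transporters, 1 of 8 enzymes and 2 of 11 regulators held the letters. The members were chosen as genes of this response, partly because such elements are known in them, so the share describes the choice as much as the promoters. A match shows that the letters are present, and nothing about binding.

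The matches of members in which values are described closely are printed below with 11 bases on either side, from 5′ to 3′ on the strand of the gene, with the 8 matched letters in capitals. Matches on the opposite strand therefore read TTNCATCA.
ASNS, chr7:97872458-97872487: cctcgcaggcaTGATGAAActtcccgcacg
ATF3, chr1:212565205-212565234: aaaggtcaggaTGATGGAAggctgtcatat
SLC1A5, chr19:46784893-46784922: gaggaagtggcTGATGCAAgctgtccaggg
SLC7A1, chr13:29595663-29595692: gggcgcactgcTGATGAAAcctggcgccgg
CARS1, chr11:3057407-3057436: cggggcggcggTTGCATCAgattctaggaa
GARS1, chr7:30594834-30594863: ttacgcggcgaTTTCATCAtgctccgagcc
IARS1, chr9:92293692-92293721: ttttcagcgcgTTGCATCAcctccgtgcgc
TARS1, chr5:33440956-33440985: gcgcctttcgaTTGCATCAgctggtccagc
MARS1, chr12:57488053-57488082: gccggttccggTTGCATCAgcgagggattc
Of the matches printed, those of the 4 synthetases CARS1, IARS1, TARS1 and MARS1 read TTGCATCA, all within 13 bases of the start site. The ASNS match began 68 bases upstream of its start site and the ATF3 match 191 bases upstream. Matches in AARS1, NARS1, SLC1A4 and FGF21 completed the 13. Those of AARS1, SLC1A4 and FGF21 also read TTGCATCA, and those of NARS1 and SLC1A5 held the same element on the strand of the gene, as TGATGCAA.

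**Figure D1:**
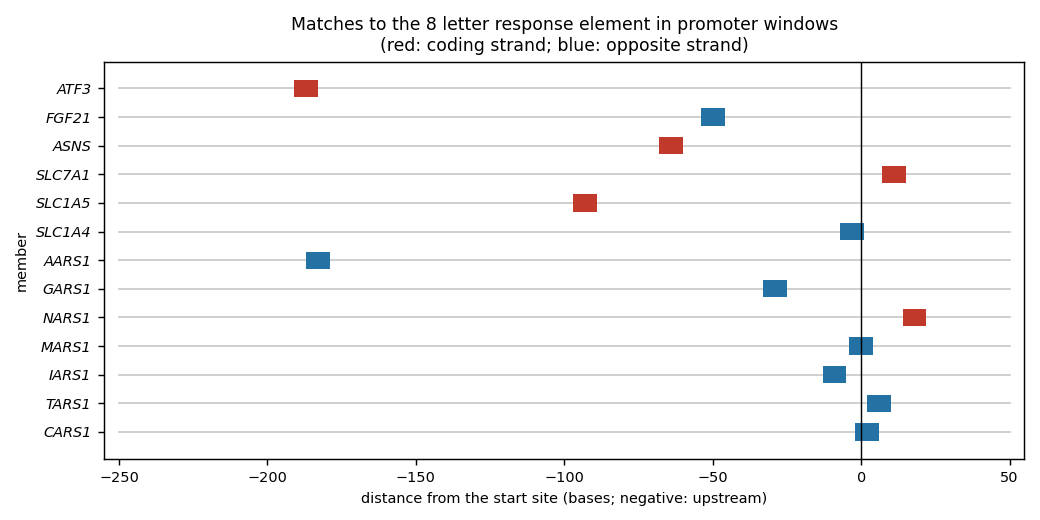
Position of each match to the 8 letter core, as distance in bases from the start site, in the 13 members that had one; grey lines are the searched windows, red bars matches on the strand of the gene and blue bars matches on the opposite strand. Among synthetases, 6 of the 7 matches lay within 33 bases of the start site, and that of AARS1 began 187 bases upstream.

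Libraries of a group were alike, with correlations of log2 values between 0.993 and 0.996, and FPKM sums ranged from 561657 to 583722. The low values move in steps that placed depth near 1.85e+07 fragments per library (95% interval 1.81e+07 to 1.89e+07), so 1 FPKM on a transcript of 2000 bases corresponds to about 32.1 fragments. Members took 0.582% to 0.593% of the FPKM sum in untreated 24 h libraries and 0.62% to 0.628% in TPN 24 h libraries, without overlap. At 144 h they took 0.781% to 0.801%, with TPN and untreated ranges overlapping. Markers of hepatocytes were abundant: the FPKM of 8 markers summed to 11800 to 12200 in untreated 24 h libraries and about 10900 in each TPN 24 h library, and to 13200 to 14100 in untreated 144 h and 10300 to 11000 in TPN 144 h libraries. For 8 stellate cell markers the sums were 136 to 140 (untreated 24 h), 134 to 138 (TPN 24 h), 196 to 204 (untreated 144 h) and 212 to 216 (TPN 144 h), and LOX carried the rise over time. COL1A1, a defining collagen, fell from 15.1 to 1.92 FPKM between the untreated groups and stood at 0.747 FPKM in TPN 144 h, and DES was below 0.1 FPKM in the mean of every group. Endothelial markers summed to 0.53 FPKM or less in every library, and PTPRC, which marks leukocytes, and KRT7, which marks bile duct cells, were near 0, whereas CD68, KRT19 and SOX9 were expressed. Fewer cells of a type and less RNA per cell cannot be told apart in such pooled RNA, and the part of these marker shifts in the results below was not tested.

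After 24 h of TPN the members moved little but mostly upward. Of 40 members tested with limma, 16 were higher in TPN-exposed spheroids at an adjusted p below 0.05 and 1 was lower, whereas 5.04% of all 11713 genes tested were called higher and 5.46% lower. At an unadjusted p below 0.05 the counts were 23 and 1, and 11.2% and 12.7% of all genes. The median log2 fold change was 0.088 for members and -0.0044 for all genes tested, and all fold changes are on the scale of log2(FPKM + 0.1). None of the members passed the additional limit of 0.58 on the absolute log2 fold change, which 0.64% of all genes passed upward and 0.273% downward. The largest change was that of ASNS at 0.40. Without overlap between the groups, 22 of the 41 members were higher in all 3 TPN libraries and 1 was lower. Of all 11713 genes tested, 1631 were higher and 1866 lower in this way, or 29.9% in either direction.

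After 144 h the picture was divided. TPN raised 14 members and lowered 8, against 24.2% of all genes called higher and 28.3% called lower. Their median log2 fold change was 0.022, that of all genes -0.018. The members' median rested on few libraries: it was 0.0441 without TPN 144 h replicate 2, 0.0369 without untreated 144 h replicate 3 and 0.0114 without untreated 144 h replicate 1, and 0.00811 with libraries scaled to the same FPKM sum. CEBPB and VLDLR were the 2 members past the limit of 0.58, both higher, where 5.75% of all genes passed it upward and 3.73% downward, and 0 members passed it downward. At an unadjusted p below 0.05, 17 members were higher and 8 lower, against 26.9% and 31% of all genes. The groups were separated in 18 members higher with TPN and 10 lower. Of all 11713 genes tested, 3181 were separated higher and 3532 lower, or 57.3% in either direction.

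**Figure D2:**
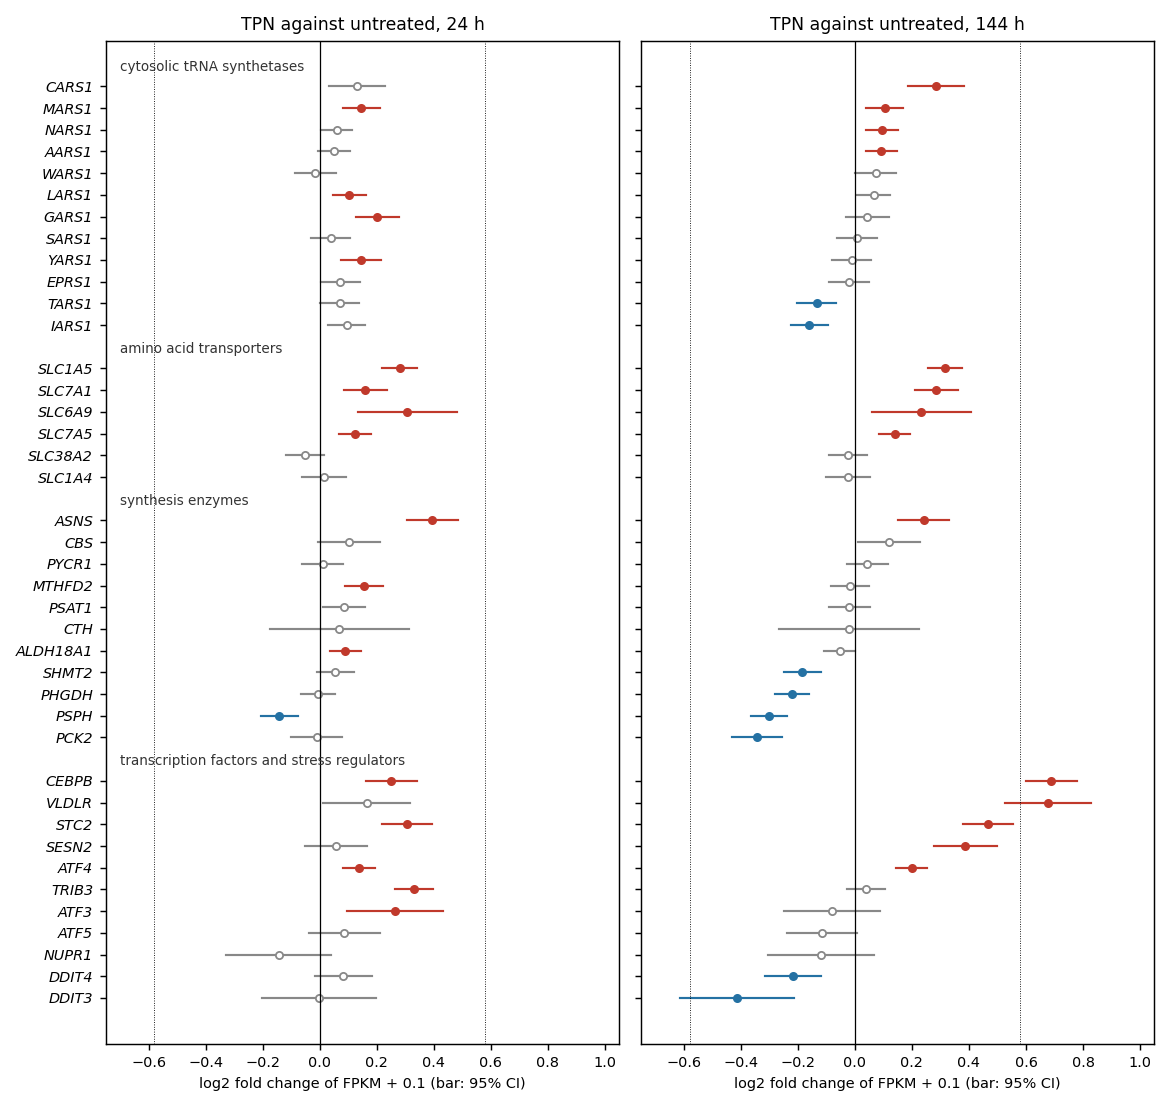
Log2 fold changes of FPKM + 0.1 with 95% confidence intervals for the 40 members tested, TPN against untreated at 24 h (left) and at 144 h (right), ordered within each role by the 144 h value; red, adjusted p below 0.05 and higher; blue, adjusted p below 0.05 and lower; grey, neither; dotted lines mark 0.58 in both directions. At 24 h filled points lie almost all to the right of 0, and at 144 h they lie on both sides.

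Among transcription factors and stress regulators, TPN raised ATF4 itself and its partner CEBPB at both times, raised ATF3 and TRIB3 at 24 h but not detectably at 144 h, and lowered DDIT3 and DDIT4 at 144 h. Of the 11 tested, 5 were called higher and 0 lower at 24 h (6 and 0 at an unadjusted p below 0.05), and 5 higher and 2 lower at 144 h. Over all genes the shares called higher and lower were 5.04% and 5.46% at 24 h and 24.2% and 28.3% at 144 h. The regulators' median log2 fold change was 0.14 at 24 h and 0.039 at 144 h. The latter was 0.0174 without untreated 144 h replicate 1, 0.0698 without untreated 144 h replicate 3, 0.0227 without TPN 144 h replicate 3, 0.119 with no filter, 0.0246 with equal FPKM sums and 0.0237 with quantile normalization.

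ATF4 (chr22:39514494-39522686 in the authors' table, build GRCh38.p13) had the highest mean FPKM of these regulators over the 12 libraries. In untreated 144 h alone DDIT4 averaged more, 505 FPKM against 497. It measured 439, 424 and 437 FPKM in the untreated 24 h libraries, 478, 481 and 471 in TPN 24 h, 496, 487 and 507 in untreated 144 h, and 559, 577 and 574 in TPN 144 h. Every TPN library lay above every untreated library of the same time. The log2 fold change was 0.14 (SE 0.026, adjusted p = 0.00334) at 24 h and 0.20 (SE 0.026, adjusted p = 2.25e-05) at 144 h, a rise of 1.10-fold and 1.15-fold.

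CEBPB (chr20:50190583-50197667) encodes C/EBP beta, a factor that pairs with ATF4 and also drives acute phase and adipocyte genes. Its FPKM values were 29.2, 29.6 and 27.2 in untreated 24 h, 32.9, 34.3 and 35.1 in TPN 24 h, 53.2, 53.9 and 56.5 in untreated 144 h, and 84.4, 89.0 and 90.3 in TPN 144 h. The 4 groups did not overlap, and the TPN libraries were higher at each time. The log2 fold change of 0.25 (SE 0.041, adjusted p = 0.00142) at 24 h became 0.69 (SE 0.041, adjusted p = 1.51e-08) at 144 h, or 1.61-fold.

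VLDLR (chr9:2619998-2660056), the receptor that takes up very low density lipoprotein and is induced through ATF4 in liver, was among the least abundant members. It measured 2.13, 1.90 and 1.98 FPKM in untreated 24 h, 2.29, 2.35 and 2.13 in TPN 24 h, 3.90, 4.18 and 4.35 in untreated 144 h, and 6.55, 6.90 and 6.59 in TPN 144 h. Values overlapped at 24 h, with equal readings of 2.13 in 1 library of each group, and were well apart at 144 h. The log2 fold changes were 0.16 (SE 0.071, adjusted p = 0.173) and 0.68 (SE 0.071, adjusted p = 3.09e-06). With a pseudocount of 1 in place of 0.1 the 144 h value was 0.579 and no longer passed 0.58.

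TRIB3, a pseudokinase that dampens ATF4 activity and AKT signalling, gave 103, 107 and 104 FPKM in untreated 24 h, 132, 133 and 130 in TPN 24 h, 207, 211 and 223 in untreated 144 h, and 220, 215 and 225 in TPN 144 h. TPN libraries were all higher at 24 h and overlapped untreated libraries at 144 h. Its log2 fold change was 0.33 (SE 0.031, adjusted p = 9.9e-06) at 24 h and 0.039 (SE 0.031, adjusted p = 0.306) at 144 h.

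ATF3, a stress-induced repressor and activator of the same family, measured 2.85, 2.82 and 2.70 FPKM in untreated 24 h, 3.10, 3.87 and 3.18 in TPN 24 h, 39.8, 38.0 and 42.3 in untreated 144 h, and 35.21, 41.03 and 37.43 in TPN 144 h. The TPN libraries were slightly higher at 24 h, with TPN 24 h replicate 2 farthest, and overlapped the untreated ones at 144 h. The 24 h change of 0.26 (SE 0.078, adjusted p = 0.0476) was lost when any 1 of 9 libraries was left out (untreated 24 h replicates 1, 2 and 3, TPN 24 h replicates 2 and 3, untreated 144 h replicates 1, 2 and 3 or TPN 144 h replicate 3), with adjusted p from 0.0524 to 0.163, and the value fell to 0.165 without TPN 24 h replicate 2. It was also lost with a pseudocount of 1, no filter, median-ratio scaling, no intensity trend or only the groups compared (adjusted p from 0.0508 to 0.118).

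DDIT3 encodes CHOP, a factor that links prolonged ER stress to cell death. It measured 23.8, 20.4 and 19.5 FPKM in untreated 24 h, 23.3, 23.0 and 17.6 in TPN 24 h, 128, 125 and 137 in untreated 144 h, and 98.5, 98.2 and 96.1 in TPN 144 h. Both 24 h groups overlapped, and at 144 h all TPN libraries were lower. The log2 fold change was -0.0037 (SE 0.093, adjusted p = 0.986) at 24 h and -0.41 (SE 0.093, adjusted p = 0.00205) at 144 h. DDIT3 shares 68 bases at its end with MARS1 on the opposite strand in the authors' coordinates, and reads in that stretch could be assigned to either gene if strand was not used in counting.

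STC2, SESN2 and DDIT4 also changed at 144 h. STC2, a secreted glycoprotein of the stress response, rose from 47.8 ± 2.07 to 59.2 ± 1.89 FPKM (mean ± SD, n = 3) at 24 h and from 145 ± 4.82 to 200.4 ± 8.56 at 144 h, log2 fold changes of 0.31 and 0.47. SESN2, a leucine sensor that restrains the growth kinase complex mTORC1, measured 8.24 ± 0.226 and 8.59 ± 0.526 FPKM at 24 h and rose from 16.9 ± 0.818 to 22.1 ± 0.546 at 144 h, a log2 fold change of 0.39 (adjusted p = 2.7e-05). DDIT4, which also restrains mTORC1, fell from 505 ± 20.5 to 435 ± 3.70 FPKM at 144 h, a log2 fold change of -0.22 (adjusted p = 0.00131). The direction of DDIT4 was thus that of DDIT3 and not that of SESN2. ATF5, a related factor, and NUPR1, a stress-induced chromatin protein, passed the test at neither time, although ATF5 passed at 144 h without untreated 144 h replicate 1 (adjusted p = 0.0444).

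**Figure D3:**
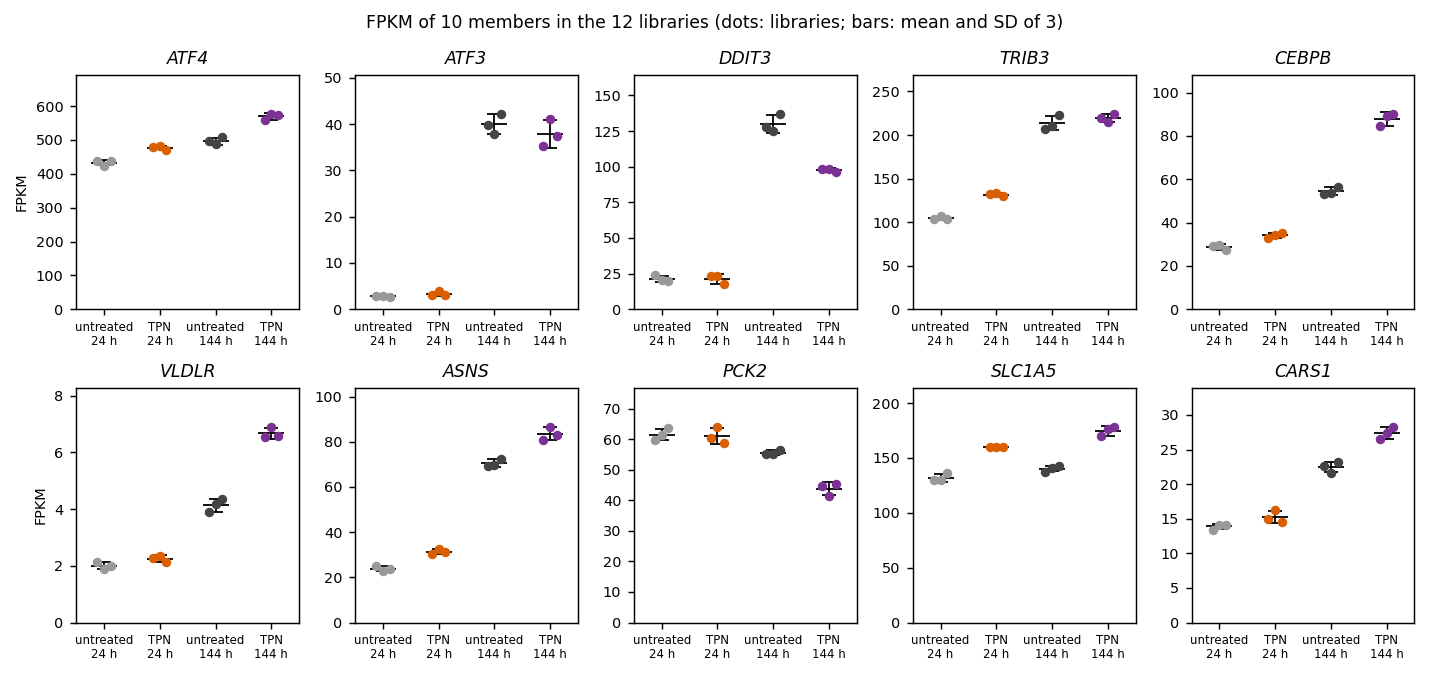
FPKM of 10 members in each of the 12 libraries (dots), with the mean and SD of the 3 libraries of a group (bars), on linear axes that start at 0. CEBPB and VLDLR step up with TPN at 144 h, PCK2 and DDIT3 step down, and ATF3, DDIT3 and ASNS rise from 24 h to 144 h in untreated spheroids.

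Among synthesis enzymes TPN raised ASNS at both times and lowered PCK2, PSPH, PHGDH and SHMT2 at 144 h. At 24 h, 3 of 11 were called higher and 1 lower, and at 144 h 1 was higher and 4 lower, where all genes had 5.04% and 5.46% at 24 h and 24.2% and 28.3% at 144 h. The median log2 fold change at 24 h was 0.069, and 0.0284 without TPN 24 h replicate 2. At 144 h it was -0.021, and between -0.0571 (without TPN 144 h replicate 1) and -0.0122 (with median-ratio scaling) over all alternatives. It was -0.0337 and -0.0375 without untreated 144 h replicate 1 and 3, -0.0349 with equal FPKM sums and -0.0338 with quantile normalization.

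ASNS, which makes asparagine from aspartate and glutamine and is the textbook reporter of this response, carried the element printed above. It measured 25.0, 22.7 and 23.9 FPKM in untreated 24 h, 30.5, 32.7 and 31.0 in TPN 24 h, 69.4, 69.9 and 72.5 in untreated 144 h, and 80.9, 86.6 and 83.2 in TPN 144 h. All TPN libraries lay above all untreated libraries of their time. The log2 fold change was 0.40 (SE 0.041, adjusted p = 2.96e-05) at 24 h and 0.24 (SE 0.041, adjusted p = 0.00025) at 144 h.

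PCK2, the mitochondrial enzyme that turns oxaloacetate into phosphoenolpyruvate, had the largest change of an enzyme at 144 h. It measured 59.8, 61.3 and 63.6 FPKM in untreated 24 h, 60.4, 64.0 and 58.8 in TPN 24 h, 55.04, 55.26 and 56.55 in untreated 144 h, and 44.8, 41.4 and 45.3 in TPN 144 h. Values overlapped at 24 h and were lower in all TPN libraries at 144 h, with log2 fold changes of -0.011 (adjusted p = 0.908) and -0.34 (SE 0.041, adjusted p = 1.13e-05).

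Serine is made from a glycolytic intermediate by PHGDH, PSAT1 and PSPH in turn. PSPH was the 1 member lowered by TPN at both times, with log2 fold changes of -0.14 (adjusted p = 0.00759) and -0.30 (adjusted p = 1.85e-06). PHGDH did not pass at 24 h (-0.0068, adjusted p = 0.917) and fell at 144 h (-0.22, adjusted p = 1.64e-05), and PSAT1 passed at neither time (0.085 and -0.019). SHMT2, which splits serine into glycine and a one-carbon unit in mitochondria, was the most abundant enzyme of the group, with a mean of 333 FPKM over the 12 libraries, and fell at 144 h (-0.19, adjusted p = 0.000165). MTHFD2, the next mitochondrial folate enzyme, was higher at 24 h (0.16, adjusted p = 0.00527) and did not pass at 144 h (-0.016, adjusted p = 0.687).

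Of the proline enzymes, ALDH18A1 passed at 24 h (0.089, adjusted p = 0.0398) and PYCR1 at neither time (0.011 and 0.044). The ALDH18A1 call was lost without untreated 24 h replicate 1 or 2, any of the 3 TPN 24 h replicates or TPN 144 h replicate 1, with adjusted p from 0.0537 to 0.146, and also with equal FPKM sums, quantile normalization, no intensity trend or only the groups compared (0.0733 to 0.273). The transsulfuration enzymes CTH and CBS, which lead from homocysteine to cysteine, passed at neither time, with log2 fold changes of 0.069 and -0.021 for CTH and 0.10 and 0.12 for CBS. CBS shares reads with a near-identical copy and is uncertain, and its 144 h value passed without untreated 24 h replicate 3, TPN 24 h replicate 3, untreated 144 h replicate 3 or TPN 144 h replicate 1 (adjusted p from 0.0358 to 0.0486). It also passed with the replicate block (adjusted p = 0.0159), median-ratio scaling (0.049) and quantile normalization (0.0332).

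Amino acid transporters were raised by TPN at both times or did not pass. The same 4 of 6 genes, SLC1A5, SLC7A1, SLC7A5 and SLC6A9, were called higher at 24 h and at 144 h, and 0 were lower at either time, also at an unadjusted p below 0.05. All genes were called higher in 5.04% and 24.2% of cases and lower in 5.46% and 28.3% at the 2 times. The transporters' median log2 fold change was 0.14 at 24 h and 0.19 at 144 h.

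SLC1A5, which imports glutamine and other neutral amino acids, changed most at 144 h. It measured 130.2, 129.6 and 135.9 FPKM in untreated 24 h, 160.3, 159.7 and 160.5 in TPN 24 h, 137.6, 141 and 142 in untreated 144 h, and 169.7, 176 and 178 in TPN 144 h. TPN libraries exceeded every untreated library of either time. The log2 fold changes were 0.28 (SE 0.028, adjusted p = 1.9e-05) and 0.32 (SE 0.028, adjusted p = 6.46e-07).

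SLC7A1, the main importer of arginine and lysine, had log2 fold changes of 0.16 (adjusted p = 0.00967) and 0.29 (adjusted p = 1.39e-05). SLC7A5, which exchanges glutamine for leucine and other large neutral amino acids, had smaller ones of 0.12 (adjusted p = 0.00708) and 0.14 (adjusted p = 0.000493). SLC6A9, a glycine transporter at 4.77 to 9.33 FPKM, had 0.31 and 0.23, each with an adjusted p of 0.0264. Its calls depended on single libraries: at 24 h the call was lost without untreated 24 h replicate 1 or 3 or TPN 24 h replicate 2 or 3 (adjusted p from 0.0583 to 0.108) and, without a library left out, with no filter (0.0507) or only the groups compared (0.0515), and at 144 h without untreated 144 h replicate 1 or 2 or TPN 144 h replicate 1 (0.0656 to 0.108). SLC38A2, a sodium-coupled transporter of neutral amino acids that is known to rise in amino acid shortage, did not pass at 24 h (-0.051, 95% interval -0.12 to 0.015) or at 144 h (-0.024, 95% interval -0.090 to 0.042), and neither did SLC1A4 (0.014 and -0.025).

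Cytosolic tRNA synthetases, each of which loads 1 amino acid onto its tRNA (EPRS1 loads both glutamate and proline), moved by small amounts. At 24 h TPN raised 4 of 12 and lowered 0 (9 and 0 at an unadjusted p below 0.05), and at 144 h it raised 4 and lowered 2. Over all genes 5.04% were called higher and 5.46% lower at 24 h, and 24.2% and 28.3% at 144 h. Median log2 fold changes were 0.084 and 0.055.

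CARS1, the cysteine enzyme and the least abundant of the 12, moved most at 144 h. It measured 13.4, 14.2 and 14.1 FPKM in untreated 24 h, 14.9, 16.2 and 14.6 in TPN 24 h, 22.6, 21.6 and 23.2 in untreated 144 h, and 26.5, 27.4 and 28.3 in TPN 144 h. TPN libraries were higher at both times without overlap, and the log2 fold changes were 0.13 (SE 0.046, adjusted p = 0.0957) and 0.28 (SE 0.046, adjusted p = 0.000164).

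The glycine enzyme GARS1 had the largest rise of a synthetase at 24 h (0.20, adjusted p = 0.00198), followed by the methionine enzyme MARS1 (0.15, adjusted p = 0.00634), the tyrosine enzyme YARS1 (0.15, adjusted p = 0.0102) and the leucine enzyme LARS1 (0.10, adjusted p = 0.0266). The YARS1 call was lost without untreated 24 h replicate 2 (adjusted p = 0.0507), and the LARS1 call without any 1 of the 6 libraries of 24 h (adjusted p from 0.0571 to 0.0944) or with equal FPKM sums (0.0605). At 144 h MARS1 was again higher (0.10, adjusted p = 0.00945), as were the asparagine enzyme NARS1 (0.095, adjusted p = 0.00647) and the alanine enzyme AARS1 (0.092, adjusted p = 0.008). The isoleucine enzyme IARS1 (-0.16, adjusted p = 0.00053) and the threonine enzyme TARS1 (-0.13, adjusted p = 0.00255) were lower at 144 h. Of the 7 synthetases with a promoter match, CARS1, MARS1, NARS1 and AARS1 were called higher at 144 h and IARS1 and TARS1 lower. The remaining match was that of GARS1, which did not pass at 144 h (0.043, adjusted p = 0.313). A link between the element and the direction of change was not tested.

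SARS1, WARS1 and EPRS1, the enzymes for serine, tryptophan and for glutamate with proline, passed at neither time, with log2 fold changes between -0.021 and 0.073 over both times. Leaving out 1 library brought 3 more calls, all near the threshold: WARS1 at 144 h without TPN 144 h replicate 1 (adjusted p = 0.0388), LARS1 at 144 h without untreated 144 h replicate 1 (adjusted p = 0.0327) and IARS1 at 24 h without TPN 144 h replicate 3 (adjusted p = 0.0499). Other scalings or no filter gave the same 3 calls: WARS1 with quantile normalization (0.0173), LARS1 with no filter (0.0371), median-ratio scaling (0.0313) or quantile normalization (0.0144), and IARS1 with median-ratio scaling (0.0484).

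Synthetases and scaffold proteins outside the list were compared to place these values. Of 11 other cytosolic synthetases and scaffolds, 2 were higher and 0 lower at 24 h, and 2 were higher and 4 lower at 144 h, with median log2 fold changes of 0.073 and -0.063. These counts stand beside 5.04% and 5.46% of all genes called higher and lower at 24 h and 24.2% and 28.3% at 144 h, as do those of the next list. AIMP1, a scaffold of the multisynthetase complex (0.25), and HARS1, for histidine (0.23), rose at 144 h, and QARS1, for glutamine (-0.21), and FARSB, a subunit for phenylalanine (-0.18), fell. Of 17 mitochondrial synthetases, 1 was higher at 24 h, and 2 were higher and 7 lower at 144 h, led by SARS2 (-0.33), AARS2 (-0.33), FARS2 (-0.31) and WARS2 (-0.25). Their medians were 0.026 and -0.077, and no test compared the lists.

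**Figure D4:**
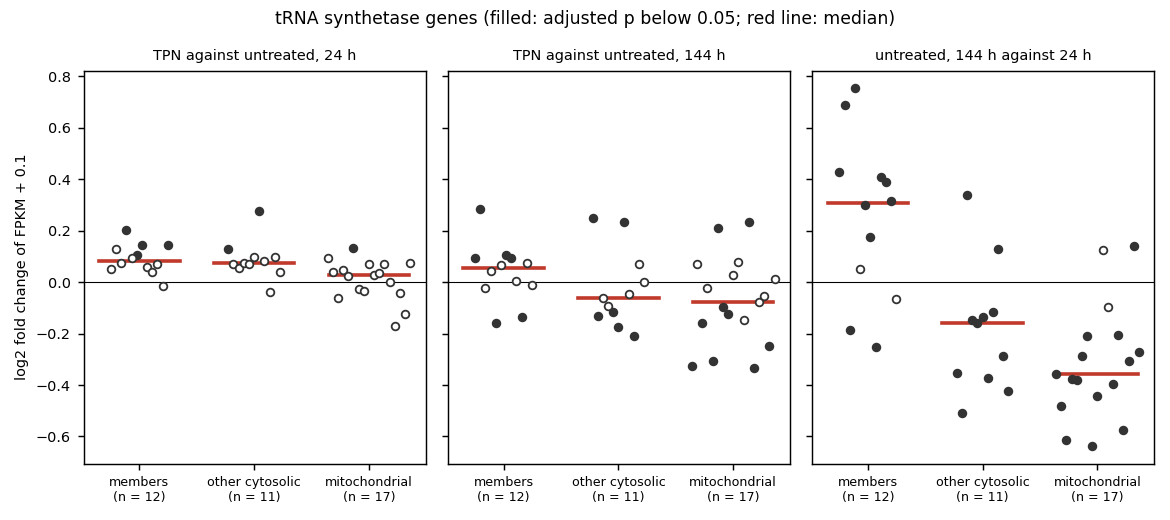
Log2 fold changes of FPKM + 0.1 for the 12 member synthetases, 11 other cytosolic synthetases and scaffolds and 17 mitochondrial synthetases, in 3 comparisons; filled points had an adjusted p below 0.05 and red lines are medians. The medians differ little at 24 h with TPN, and over time in untreated spheroids they are 0.31, -0.16 and -0.36.

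The effect of TPN was tested for a difference between the times as the fold change at the later time less that at the earlier one, on the log2 scale. This difference was positive for 3 of 40 members and negative for 14, against 14.1% of all genes called in the first direction and 16.3% in the second. At an unadjusted p below 0.05 the counts were 6 and 17, where 18.9% and 22.3% of all genes passed. The count with a positive difference was 6 with quantile normalization and 5 without TPN 24 h replicate 2. No member had a difference beyond 0.58 in either direction, where 4.2% of all genes passed upward and 1.66% downward. The 3 with a positive difference were all regulators, VLDLR (0.51, SE 0.10), CEBPB (0.44, SE 0.058) and SESN2 (0.33, SE 0.072). Those with a negative difference were 4 regulators, 6 enzymes and 4 synthetases, from -0.41 (DDIT3) to -0.14 (ALDH18A1). A negative difference can be a weaker rise, as in TRIB3 (0.33 at 24 h and 0.039 at 144 h). It can also be a deeper fall, as in PSPH (-0.14 and -0.30). No transporter was called (1 positive and 0 negative at an unadjusted p below 0.05). SLC7A1 was called under quantile normalization (adjusted p = 0.0329) and without untreated 144 h replicate 2 (0.0359) or TPN 144 h replicate 3 (0.0485). STC2, with an adjusted p of 0.0514, was called in 9 alternatives, with adjusted p from 0.0215 to 0.0484: without untreated 24 h replicate 3, TPN 24 h replicate 2, untreated 144 h replicate 3 or TPN 144 h replicate 1, with the replicate block, a pseudocount of 1, a filter at a mean of 5 FPKM, equal FPKM sums or quantile normalization. ATF4 itself did not pass (0.060, 95% interval -0.018 to 0.14), and neither did ASNS (-0.15, adjusted p = 0.0624), which was called with equal FPKM sums (0.047) and without untreated 24 h replicate 1 (0.0282) or TPN 144 h replicate 2 (0.0435). CARS1 was called under quantile normalization (0.0441) and without TPN 24 h replicate 2 (0.0297), and ATF5 without TPN 24 h replicate 1 (0.0261) or untreated 144 h replicate 1 (0.0389).

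Fold changes were widest over time in culture, from -0.41 to 3.79 on the log2 scale, where TPN at 144 h spanned -0.41 to 0.69. From 24 h to 144 h in untreated spheroids, 26 of 40 members rose and 12 fell, against 20.1% of all genes called higher and 52.4% called lower. With the limit of 0.58 added, 13 members were higher and 0 lower, where 6.8% of all genes passed upward and 12.2% downward. The median log2 fold change was 0.31 for members and -0.18 for all genes tested. That median depends on scaling: median-ratio scaling added 0.17 and quantile normalization 0.13 to it, and the share of calls that were higher moved from 27.8% of all calls to 48.9% and 43.4%. Under these scalings 29 members were higher and 7 or 8 lower, and 30 or 31 of 40 lay above the median of all genes, against 30 as deposited. This contrast also spans the growth of the spheroids and the fall of COL1A1 given above, and untreated libraries are shared with the TPN comparisons.

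Stress regulators rose most over time, with a median of 1.03. ATF3 rose from 2.79 ± 0.079 to 40.02 ± 2.17 FPKM (mean ± SD, n = 3), which is 13.9-fold (log2 fold change 3.79, SE 0.078, adjusted p = 5.93e-13). DDIT3 rose 6.12-fold (2.61, SE 0.093, adjusted p = 3.26e-11), STC2 3.03-fold (1.60) and DDIT4 3.01-fold (1.59). SESN2 (1.03), TRIB3 (1.03), VLDLR (1.01) and CEBPB (0.93) about doubled, while ATF4 mRNA itself rose by 0.20 (SE 0.026, adjusted p = 1e-05). ATF5 (-0.31) and NUPR1 (-0.26) were lower. The NUPR1 call was lost without untreated 24 h replicate 1 (adjusted p = 0.0796), under median-ratio scaling (-0.091, adjusted p = 0.368) and under quantile normalization (-0.17, adjusted p = 0.0822).

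**Figure D5:**
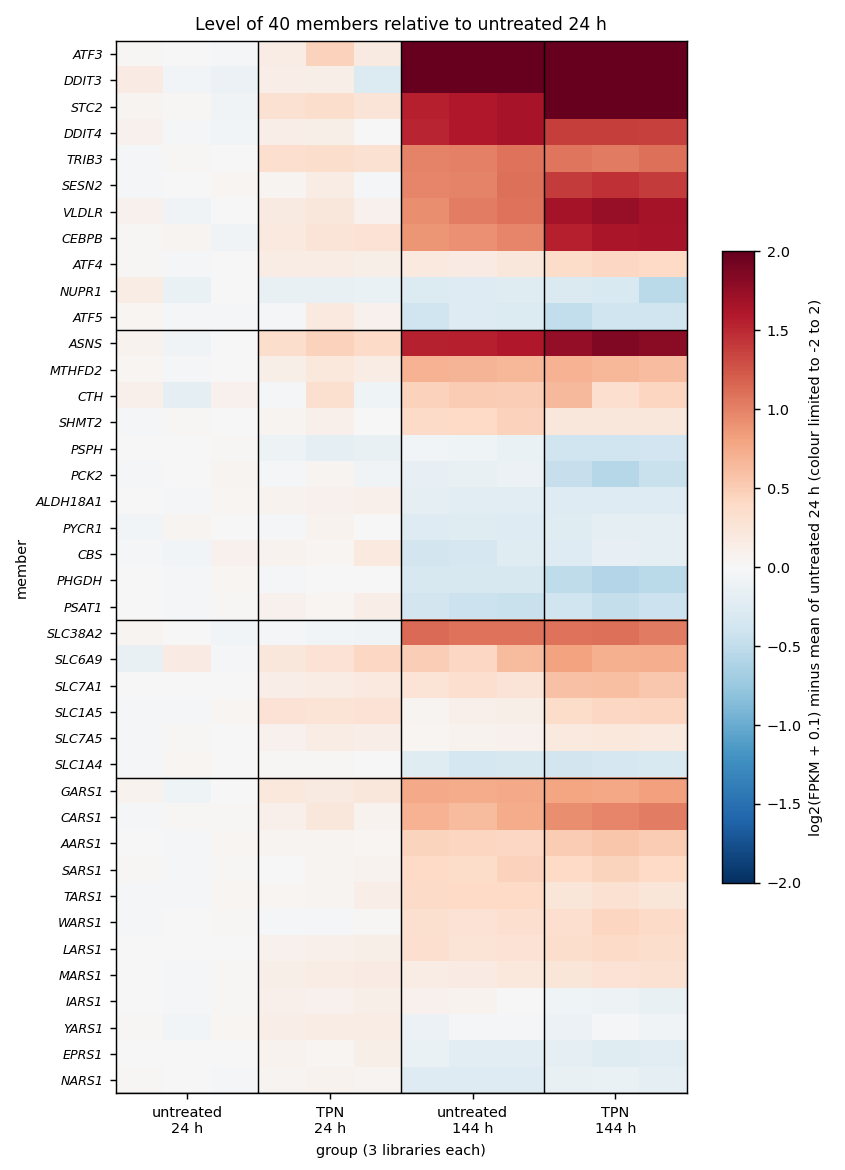
Level of the 40 tested members in the 12 libraries as log2(FPKM + 0.1) minus the mean of the 3 untreated 24 h libraries, ordered within each role by the change over time in untreated spheroids; colour is limited to -2 to 2. The step from 24 h to 144 h is larger than the step from untreated to TPN for most regulators, while PSAT1, PHGDH and PYCR1 are lower at 144 h.

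Enzymes did not follow the regulators as a group over time. ASNS rose 2.96-fold (1.56, SE 0.041, adjusted p = 3.14e-12), MTHFD2 by 0.68, CTH by 0.49 and SHMT2 by 0.41 on the log2 scale, whereas PSAT1 (-0.41), PHGDH (-0.32), CBS (-0.32), PYCR1 (-0.26), ALDH18A1 (-0.21), PCK2 (-0.15) and PSPH (-0.094) fell. The falls of PSPH and PCK2 were smaller than that of the median gene, and both values turned positive under median-ratio scaling (0.080 and 0.028) and quantile normalization (0.083 and 0.037). The fall of ALDH18A1 was not called under median-ratio scaling (-0.032, adjusted p = 0.257). PSPH was also not called without untreated 144 h replicate 3 (adjusted p = 0.0584).

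Among transporters, SLC38A2 rose 2.15-fold over time, from 160.2 ± 6.42 to 344 ± 7.06 FPKM (1.10, SE 0.031, adjusted p = 4.77e-12), although TPN did not move it detectably. SLC6A9 (0.51), SLC7A1 (0.29), SLC1A5 (0.090) and SLC7A5 (0.064) were higher and SLC1A4 (-0.31) was lower. The SLC7A5 call was lost without untreated 24 h replicate 1 or 3 or untreated 144 h replicate 2 or 3 (adjusted p from 0.0571 to 0.154), and with equal FPKM sums, no intensity trend or only the groups compared (0.0721 to 0.144).

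Of the member synthetases, 8 were higher at 144 h and 2 lower, with GARS1 (0.75), CARS1 (0.69), AARS1 (0.43), SARS1 (0.41) and TARS1 (0.39) in the lead and WARS1 (0.31), LARS1 (0.30) and MARS1 (0.18) behind. NARS1 (-0.25) and EPRS1 (-0.19) were lower, and the EPRS1 call was lost under median-ratio scaling (-0.015, adjusted p = 0.691) and quantile normalization (-0.016, adjusted p = 0.686). IARS1 (0.052) did not pass as deposited and was higher under these scalings (0.23, adjusted p = 1.18e-05, and 0.22, adjusted p = 5.04e-05). YARS1 (-0.064) did not pass as deposited, and it was called higher under median-ratio scaling (0.11, adjusted p = 0.00968) and quantile normalization (0.12, adjusted p = 0.00683). YARS1 passed as lower without untreated 24 h replicate 2 (adjusted p = 0.0364) and with equal FPKM sums (0.047). Of the other cytosolic synthetases and scaffolds 2 were higher and 9 lower (median -0.16), and of the mitochondrial synthetases 1 was higher and 14 lower (median -0.36), where 20.1% of all genes were called higher and 52.4% lower.

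The pathway upstream and downstream of ATF4 was read from further lists. Of 12 genes for eIF2 alpha kinases, its phosphatase subunits and initiation factors, TPN raised 2 and lowered 0 at 24 h and raised 1 and lowered 4 at 144 h, where all genes had 5.04% and 5.46% at 24 h and 24.2% and 28.3% at 144 h. PPP1R15A encodes GADD34, which reverses eIF2 alpha phosphorylation and is itself an ATF4 target. It averaged 13.4 FPKM in untreated 24 h and 15.1 in TPN 24 h, and 71.0 in untreated 144 h and 56.7 in TPN 144 h. It thus rose over time (2.40) and was lowered by TPN at 144 h (-0.32, adjusted p = 9.6e-05). PPP1R15B, the constitutive subunit, was higher at 144 h (0.33), and EIF2AK4, the GCN2 kinase (-0.18), and EIF2B1, a subunit of the factor that recharges eIF2 (-0.15), were lower.

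Of 25 other known ATF4 targets, TPN raised 9 and lowered 0 at 24 h, and raised 15 and lowered 1 at 144 h, with medians of 0.097 and 0.27. Past the limit of 0.58 there were 3 at 24 h and 9 at 144 h, all higher. Of all genes, 5.04% were called higher and 5.46% lower at 24 h, and 24.2% and 28.3% at 144 h. The limit was passed upward by 0.64% and downward by 0.273% at 24 h, and by 5.75% and 3.73% at 144 h. SQSTM1, an autophagy receptor, averaged 129 FPKM in untreated and 349 in TPN-exposed spheroids at 144 h (log2 fold change 1.44, SE 0.036). SLC6A6, the taurine transporter (1.24), SLC7A11, the cystine importer (1.01), and TXNIP, a thioredoxin inhibitor (0.95), followed. SQSTM1 and SLC7A11 are also known targets of the oxidative stress factor NRF2, and TXNIP of the glucose sensor ChREBP, so the name of the list covers genes with more than 1 known regulator. Over time in untreated spheroids 19 of the 25 rose and 2 fell, against 20.1% and 52.4% of all genes.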

How the data were processed

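RNA from pooled spheroids of 12 libraries (4 groups, 3 replicates each, described in the study as independent experiments) was sequenced on DNBSEQ. The authors filtered reads with SOAPnuke, aligned them with HISAT2 2.0.4 to GRCh38.p13, mapped them to reference transcripts with Bowtie2 2.2.5 and deposited FPKM values from RSEM, rounded to 2 decimals; whether RSEM used strand is not given in the sources used here. The table's annotation columns served for symbols and coordinates only, and 20 broken annotation lines were skipped. FPKM values are not counts, so limma 3.58.1 (R 4.3.3) replaced the DESeq2 test of the study. Genes with a mean of at least 0.5 FPKM were fitted as log2(FPKM + 0.1) with 1 mean per group over all 12 libraries and an intensity trend in eBayes, and p-values were adjusted by Benjamini-Hochberg over 11713 genes. A gene was called at an adjusted p below 0.05, and the study's limit of 0.58 on the absolute log2 fold change was applied in addition where stated. The fit was tested on simulated data.

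Members and gene lists were chosen with earlier results of these data known, so no p-value was computed for a list. Every member is accounted for. Values in every library are given for members past 0.58 at either time, for ATF4, ATF3, DDIT3, ASNS and TRIB3, and for the member with the largest change at 144 h in its role. At most 4 called genes, those with the largest change at 144 h, are named from each further list. SAMTOR, of the mTORC1 list, was not matched by symbol. Depth was estimated from the steps between low FPKM values of 52 genes against their GENCODE transcript lengths; it covers counting error only. Alternatives covered pseudocounts (1 and 0.01), filters (none, and a mean of 5 FPKM), 3 scalings, no intensity trend, only the groups compared, a replicate block and each library left out. Same-numbered libraries of different groups deviated together only weakly. Tables and figures were made with Python 3.11.15 and matplotlib 3.10.9.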

Additional observations from a re-analysis of the deposited data

Results flagged for a closer look

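The effect of TPN at 144 h differed from that at 24 h in 17 members by an interaction term in limma (adjusted p below 0.05). The difference is the later fold change less the earlier one, on the log2 scale. It was positive for CEBPB (0.44), SESN2 (0.33) and VLDLR (0.51). It was negative for the regulators ATF3 (-0.34), DDIT3 (-0.41), DDIT4 (-0.30) and TRIB3 (-0.29). Enzymes with a negative difference were PHGDH (-0.21), PSPH (-0.16), SHMT2 (-0.24), MTHFD2 (-0.17), ALDH18A1 (-0.14) and PCK2 (-0.33). Synthetases with a negative difference were GARS1 (-0.16), IARS1 (-0.26), TARS1 (-0.20) and YARS1 (-0.16).

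In TRIB3, ATF3, MTHFD2, ALDH18A1, GARS1 and YARS1 the call for TPN against untreated was made at 24 h only, and in DDIT3, DDIT4, PHGDH, SHMT2, PCK2, IARS1 and TARS1 at 144 h only. PSPH was lower at both times. The difference for ATF3 was not called without untreated 24 h replicate 3, TPN 24 h replicate 2, untreated 144 h replicate 1 or 3 or TPN 144 h replicate 1 or 3 (adjusted p from 0.0532 to 0.077), with no filter (0.0552) or with no intensity trend (0.0526). For DDIT3 it was not called without untreated 24 h replicate 2 or 3, TPN 24 h replicate 1 or 2, untreated 144 h replicate 3 or TPN 144 h replicate 2 or 3 (0.0513 to 0.076), with no filter (0.0604) or with no intensity trend (0.0637), and for GARS1 without untreated 24 h replicate 2, TPN 24 h replicate 1 or 3 or TPN 144 h replicate 1 or 2 (0.0526 to 0.0575) or with no intensity trend (0.0565). For ALDH18A1 it was not called under quantile normalization (-0.091, adjusted p = 0.122).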

How the results depend on the processing

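The counts of members called, both directions together, kept within 1.5 times of their reported values under all alternatives that were run, except for the count past 0.58 at 144 h, which was 1 in place of 2 with a pseudocount of 1 and with a filter at a mean of 5 FPKM. By direction, members with a positive difference between times numbered 6 with quantile normalization and 5 without TPN 24 h replicate 2, in place of 3. Members lower over time numbered 7 with median-ratio scaling, in place of 12. The median log2 fold change of members at 24 h, 0.088, ranged from 0.0752 to 0.103 when each library was left out, and the median at 144 h, 0.022, from 0.0114 to 0.0441; it was 0.0389 with no filter, which adds FGF21. Values over time reversed under median-ratio and quantile scaling for PSPH (0.08 and 0.0832), PCK2 (0.028 and 0.0369) and YARS1 (0.11 and 0.12), since both scalings raise the median of all genes in that contrast. With the 9 letter form TGATGNAAT, 3 members (FGF21, GARS1 and TARS1) in place of 13 had a promoter match, since fewer sequences can match. Deviations of same-numbered libraries had correlations of -0.083 to 0.151 over 18 pairs, with a median of 0.0456. Those of differently numbered libraries were -0.241 to 0.114 over 36 pairs, with a median of -0.016. Deviations from a group mean cancel out within the group, so these values are tied to the same-numbered ones and are not a separate comparison. Same-numbered libraries may thus be weakly paired, and the main fit held no block. With a replicate block, 17 members were called at 24 h, 23 at 144 h and 18 for the difference between times. Without it the counts were 17, 22 and 17. The added calls were CBS at 144 h and STC2 for the difference. The 24 h calls of ATF3, ALDH18A1, LARS1 and SLC6A9 sit close to the threshold.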

Other observations

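The sensors that connect amino acids to mTORC1, the kinase complex that drives growth, were described by 22 tested genes. TPN raised 0 and lowered 1 of them at 24 h, and raised 6 and lowered 5 at 144 h, with medians of -0.0012 and -0.0025. Over all genes 5.04% were called higher and 5.46% lower at 24 h, and 24.2% and 28.3% at 144 h. RRAGA, a small GTPase that recruits mTORC1 to lysosomes, rose most at 144 h (log2 fold change 0.38, adjusted p = 1.65e-06), from a mean of 61.2 to 79.7 FPKM. RRAGB (0.28) and SAR1B (0.27) also rose, and DEPDC5 (-0.31), a subunit of a complex that restrains mTORC1, fell. In untreated spheroids over time, 2 of the 22 rose and 9 fell, against 20.1% and 52.4% of all genes.

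ER chaperones driven by ATF6 and XBP1 mark a branch of the ER stress response other than that of ATF4. The promoter of 1 of the 10 listed here held the letters TGATGNAA, so the list is not free of possible ATF4 targets. Of 10, TPN raised 1 and lowered 1 at 24 h, and raised 3 and lowered 1 at 144 h, beside those same shares of all genes. At an unadjusted p below 0.05, 1 was higher and 5 lower at 24 h, against 11.2% and 12.7% of all genes. At 144 h 3 were higher and 2 lower, against 26.9% and 31%. The medians were -0.070 and 0.011. HSPA5, the chaperone BiP, averaged 430 FPKM in untreated 24 h, 404 in TPN 24 h, 817 in untreated 144 h and 1023 in TPN 144 h, with a log2 fold change of 0.32 at 144 h (adjusted p = 9.56e-07). MANF (0.090) and HSP90B1 (0.075) rose at 144 h by less, and CRELD2 (-0.23) fell. Over time in untreated spheroids 8 of the 10 rose and 1 fell, against 20.1% of all genes called higher and 52.4% called lower. The median log2 fold change was 0.57, and -0.18 for all genes tested.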
